A study of Mus musculus with 6 samples.

Results

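The heat shock protein (HSP) and J-domain (DNAJ) chaperone genes were followed in spleen Treg cells, the regulatory T cells that restrain immune responses. The members are the genes of the deposited count table whose symbol begins with Hsp or Dnaj. Of 90 such rows, 15 carried -ps, the mark of a pseudogene, and were set aside, which left 75. A mean of at least 2 CPM (reads per 1000000 reads of the library) over the 6 libraries was required, and 59 of the 75 genes, of 54232 in the table, met it. The other 16 lay under it, and 6 of these had no read in any library.

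The samples were 3 BAF60b knockout (KO) and 3 wild-type (WT) RNA-seq libraries of GFP+ Treg cells from mouse spleen. BAF60b, encoded by Smarcd2, is a subunit of the SWI/SNF chromatin remodelling complexes. The design text calls the knockout conventional, that is not limited to Treg cells, and gives no more on the allele, on the GFP allele or on the strain, age and sex of the mice. The numbers 1 to 3 only name the libraries within a genotype, and nothing says that each came from its own mouse. The p-values thus measure the spread between these libraries, and how far this is a spread between mice is not known. Libraries of each genotype differed in transcripts of the sex chromosomes, given below, so they were not all repeats of a single cell pool.

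Chaperones bind unfolded stretches of proteins and let them fold. HSP70 proteins (Hspa genes) work in cycles set off by J-domain proteins (Dnaj genes) and reset by nucleotide exchange factors of the HSP110 family, and HSP90 proteins take over late folding steps of kinases and receptors. Some of these genes are kept on in nearly all cells, some are switched on by the factor HSF1 after heat or other protein damage, and some are switched on by the unfolded protein response of the endoplasmic reticulum (ER).

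The 59 genes were accordingly read in classes: 9 heat-inducible, 7 ER-stress-inducible and 41 others called constitutive here, with 2 that carry the name but are not chaperones (Hspbap1 and Hspb11). By compartment, 33 act in the cytosol or nucleus, 14 in the ER and 10 in mitochondria.

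Sequence motifs of these programmes were looked up in the 250 bases before the start sites that RefSeq gives on GRCm38.p6, which existed for 48 of the 59 genes. The heat shock element, the site HSF1 binds, was searched on both strands as 2 facing units (GAANNTTC or TTCNNGAA) and as 3 units (GAANNTTC followed by NNGAA, or TTCNNGAA followed by NNTTC). A 3-unit match therefore contains 2-unit matches. At least 1 window held the 2-unit form in 6 of 8 heat-inducible genes, 1 of 6 ER-stress-inducible genes and 4 of 32 constitutive genes, beside 14.55% of all genes with a window and 12.84% of all windows. The 3-unit form stood in 2 of the 8 heat-inducible genes (Hspd1 and Hspe1) and in 1 constitutive gene (Dnajb6), beside 0.51% of all genes and 0.47% of all windows. The Hspd1 and Hspe1 windows with it overlap, so the same letters count for both genes. The ER stress response element (CCAAT, 9 bases of any kind and CCACG, on either strand) stood in 3 of the 6 ER-stress-inducible genes, Hspa5, Hsp90b1 and Dnajc3, and in none of the heat-inducible or constitutive genes with a window, beside 0.13% of all genes and 0.11% of all windows. Genes with several start sites had several windows and thus more chances of a match, and a match describes letters, not binding.

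The following 4 windows were picked with a match in each, so they do not stand for every member of a class. They are those of 3 heat-inducible genes with the element near the start site, and of Dnajc3, the ER gene called lower in KO cells. Each is written 5′ to 3′ on the strand of the gene, with the heat shock element of 2 or more units, or for Dnajc3 the ER stress response element, in capitals. They lie at chr17:34959239-34959488 (minus strand, Hspa1b), chr5:149636337-149636586 (minus strand, Hsph1), chr1:55087898-55088147 (plus strand, Hspe1) and chr14:118937682-118937931 (plus strand, Dnajc3).
Hspa1b: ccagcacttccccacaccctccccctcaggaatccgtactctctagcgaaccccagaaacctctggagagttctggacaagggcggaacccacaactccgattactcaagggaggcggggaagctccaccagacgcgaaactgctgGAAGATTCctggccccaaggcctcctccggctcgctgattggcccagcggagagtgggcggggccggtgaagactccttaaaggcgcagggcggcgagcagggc
Hsph1: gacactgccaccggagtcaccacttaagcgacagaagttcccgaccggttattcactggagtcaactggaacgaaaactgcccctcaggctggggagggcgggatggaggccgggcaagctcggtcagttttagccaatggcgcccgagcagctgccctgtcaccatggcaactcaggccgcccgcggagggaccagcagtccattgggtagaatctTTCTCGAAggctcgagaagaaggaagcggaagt
Hspe1: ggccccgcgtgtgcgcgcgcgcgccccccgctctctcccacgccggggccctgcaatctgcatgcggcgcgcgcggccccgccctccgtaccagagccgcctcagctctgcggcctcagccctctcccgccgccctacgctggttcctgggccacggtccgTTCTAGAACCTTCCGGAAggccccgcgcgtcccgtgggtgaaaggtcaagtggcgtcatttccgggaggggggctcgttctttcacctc
Dnajc3: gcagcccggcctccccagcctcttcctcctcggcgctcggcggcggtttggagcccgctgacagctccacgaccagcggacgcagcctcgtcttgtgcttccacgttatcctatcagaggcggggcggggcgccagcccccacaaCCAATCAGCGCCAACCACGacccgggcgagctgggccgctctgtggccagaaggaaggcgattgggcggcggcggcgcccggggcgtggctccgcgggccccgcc
The last capital lies 96 bases before the start site in Hspa1b, 25 in Hsph1, 71 in Hspe1 and 86 in Dnajc3. In Hspe1 the run of capitals holds 3 overlapping matches. The windows of Hspa1b and of its near-copy Hspa1a were identical at 247 of 250 positions.

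Libraries held between 18167053 and 22502804 reads. Smarcd2 lay between 57.5 and 59.0 CPM in KO cells and between 192 and 204 CPM in WT cells (log2 fold change -1.77, SE 0.05, adjusted p = 6.77e-08, edgeR's quasi-likelihood test, Benjamini-Hochberg adjusted, as for the other adjusted p values). The 6 Treg and CD4 T cell markers, Foxp3 among them, summed to 4356 to 4699 CPM in KO and 4145 to 4294 CPM in WT libraries. B cell markers (7 genes) summed to 8.58 to 11.7 CPM in KO and 14.5 to 17.5 CPM in WT libraries. The libraries of each genotype were not alike in sex-linked transcripts. The sum of 4 Y-linked genes was 304.7, 0 and 448.0 CPM in KO libraries 1, 2 and 3, against 0, 143.8 and 246.0 CPM in WT libraries 1, 2 and 3. KO library 2 and WT library 1 thus had no Y-linked read, and they recur below. Xist, the transcript of the inactive X chromosome, had 88.6, 434.6 and 0 CPM in KO libraries 1, 2 and 3, against 453.0, 255.0 and 129.5 CPM in WT libraries 1, 2 and 3. KO library 1 and WT libraries 2 and 3 thus held both kinds of transcript, and the libraries with Y-linked reads form a graded series. KO library 2 also had the highest sums of the 7 myeloid markers, 81.3 CPM against 14.5 to 35.8 CPM in the other libraries, and of the 6 erythroid markers, 12.5 CPM against 0.663 to 3.23 CPM.

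Between KO and WT cells, 3 of the 59 chaperone genes passed the test at an adjusted p of 0.05, the HSP110 family gene Hspa4l upward and the J-domain genes Dnajc3 and Dnajc15 downward. Of all 13602 genes tested, 6.45% were called, 3.25% higher and 3.2% lower, so that 1 higher and 2 lower of 59 is near the background. All 59 genes passed the filter on low counts. At an unadjusted p under 0.05 there were 12 of the 59 genes, beside 20.4% of all genes. DESeq2 called 4 (7.37% of all genes), the same 3 and Dnaja4. Without the low-count filter edgeR called 11, 9 of them higher and 8 of them heat-inducible, beside 6.58% of 24676 genes. Of the 13602 genes that pass the filter, that run called 750 higher and 790 lower. The median log2 fold change over the 59 genes was 0.01, with 34 values above 0 and 25 below, beside a median of 0.00 over all genes tested. KO and WT libraries did not overlap for 10 of the 59 genes, 3 with KO higher and 7 with KO lower, beside 25.7% of all genes (12.6% with KO higher and 13% with KO lower).

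The heat-inducible genes all had positive fold changes, and they also spread most between libraries of the same genotype. Their median log2 fold change was 0.45, with 9 of 9 above 0 and 1 of 9 called, higher, beside 3.25% of all genes called higher. Without the low-count filter 8 of 9 were called higher, beside 3.29% of 24676 genes and 750 of the 13602 that pass the filter. The median was 0.44 there, while the SE fell from 0.32 to 0.10 for Hsph1 and from 0.22 to 0.08 for Hsp90aa1. With the filter, the median was 0.00 for the constitutive genes (22 above 0 and 19 below, 1 called lower). It was -0.04 for the ER-stress-inducible genes (1 called lower). The within-genotype SD of the heat-inducible genes, on the log2(CPM + 1) scale, had a median of 0.38. It was 0.10 for the constitutive genes, 0.08 for the ER-stress-inducible genes and 0.10 for all genes tested. Of the 9 genes, 7 were among the 1360 genes (10%) with the largest such SD, and Hspa1b ranked 6 of 13602.

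**Figure D1:**
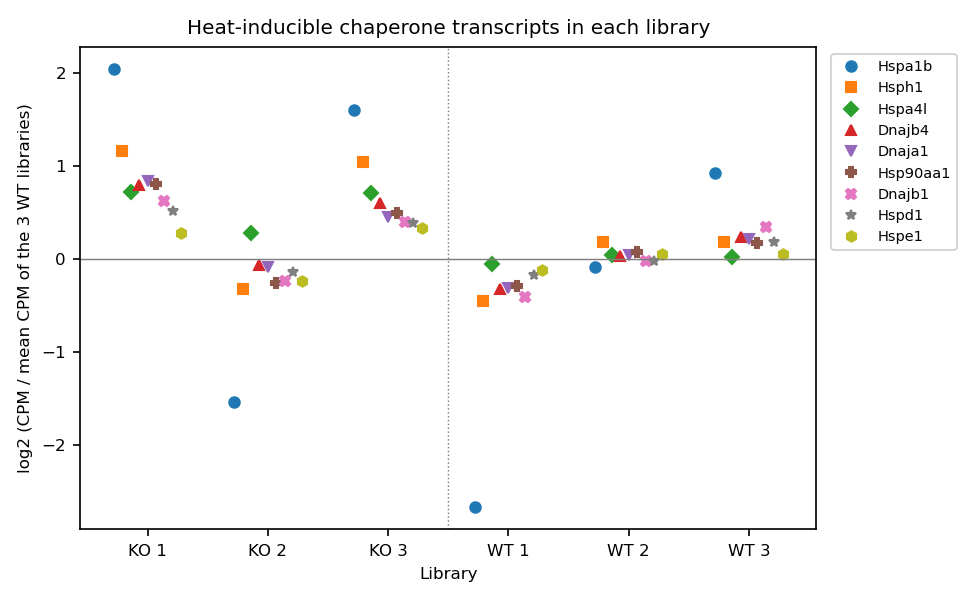
Each of the 9 heat-inducible chaperone genes (1 symbol a gene) in the 3 KO and 3 WT libraries, as log2 of its CPM over its mean CPM in the 3 WT libraries. KO libraries 1 and 3 stand above 0, while KO library 2 lies among or below the WT libraries for each gene except Hspa4l, where all 3 KO libraries lie above the 3 WT libraries.

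Hspa4l, an HSP110 family nucleotide exchange factor for HSP70 (chr3:40744495-40796103, plus strand, mm10), was the 1 heat-inducible gene called, higher in KO cells. It had 100.5, 73.9 and 99.7 CPM in KO libraries 1, 2 and 3, against 58.7, 62.7 and 61.9 CPM in WT libraries 1, 2 and 3. All 3 KO libraries were above all 3 WT libraries, with KO library 2 nearest to WT. The log2 fold change was 0.58 (SE 0.10, adjusted p = 0.0102, edgeR). Without WT library 1, or without WT library 2, the call was lost, with an adjusted p of up to 0.0661. No heat shock element of either form was found in the RefSeq window of Hspa4l.

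Its relative Hsph1, the HSP110 protein itself and the other cytosolic exchange factor of the class, had 544.3, 194.9 and 500.0 CPM in KO libraries, against 177.5, 276.0 and 276.9 CPM in WT libraries. KO libraries 1 and 3 were the highest of the 6, while KO library 2 lay below WT libraries 2 and 3. The log2 fold change of 0.76 (SE 0.32) had an adjusted p of 0.207 with all 6 libraries (edgeR). It was 0.0044 without KO library 2 and 0.492 without WT library 1, and 0.00354 without both.

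Hspa1b, the classical stress HSP70, had the largest within-genotype SD of the 59 genes. It had 24.4, 2.04 and 17.95 CPM in KO libraries (485, 40 and 406 reads), against 0.932, 5.59 and 11.2 CPM in WT libraries (17, 117 and 223 reads). KO library 2 lay below WT libraries 2 and 3, and WT library 1 was lowest of all. The log2 fold change was 1.31 (SE 0.77, adjusted p = 0.386, edgeR), and the adjusted p was 0.0793 without KO library 2 and 0.669 without WT library 1. Of its 50-base stretches, 62.3% also occur in transcripts of other genes, mostly Hspa1a, so reads of the pair may be split between them and both values are uncertain. Hspa1a itself had 61, 3 and 60 reads in KO libraries, against 2, 10 and 35 reads in WT libraries, and its mean of 1.36 CPM kept it just outside the 59.

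Hsp90aa1, the inducible cytosolic HSP90, had 764.1, 366.6 and 615.2 CPM in KO libraries, against 358.8, 462.8 and 494.4 CPM in WT libraries. The genotypes overlapped, with KO library 2 below WT libraries 2 and 3. Its log2 fold change was 0.41 (SE 0.22, adjusted p = 0.340, edgeR). Sequence shared with other transcripts, chiefly Gm12346, covered 47.5% of its 50-base stretches.

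The inducible J-domain partners of cytosolic HSP70 lay the same way. Dnaja1 had 529.7, 279.6 and 403.6 CPM in KO libraries, against 239.0, 305.2 and 344.5 CPM in WT libraries. Of its 50-base stretches, 20.55% also occur in transcripts of other genes. Dnajb1, the HSP40 protein, had 206.1, 113.9 and 176.4 CPM in KO libraries, against 100.7, 131.6 and 169.7 CPM in WT libraries. Dnajb4 had 44.3, 24.3 and 38.8 CPM in KO libraries, against 20.4, 26.2 and 30.0 CPM in WT libraries. In all 3 genes the order within each genotype was again lowest in KO library 2 and WT library 1, and the genotypes overlapped. The log2 fold changes were 0.45 (SE 0.20) for Dnaja1, 0.30 (SE 0.21) for Dnajb1 and 0.49 (SE 0.20) for Dnajb4, with adjusted p from 0.206 to 0.480 (edgeR).

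The mitochondrial chaperonin pair Hspd1 (HSP60) and Hspe1 (HSP10), which fold proteins together in the matrix, had smaller differences. Hspd1 had 340.2, 215.7 and 311.0 CPM in KO libraries, against 211.2, 234.6 and 270.1 CPM in WT libraries. Hspe1 had 129.0, 90.5 and 133.7 CPM in KO libraries, against 97.8, 110.7 and 110.6 CPM in WT libraries. Both genes were highest in KO libraries 1 and 3, and Hspe1 was lowest of all in KO library 2. Their log2 fold changes were 0.28 (SE 0.15, adjusted p = 0.339) and 0.15 (SE 0.12, adjusted p = 0.570, edgeR). The 2 genes overlap by 112 exonic bases on opposite strands, and without a stated strand setting of the counting their reads cannot be told apart there. Of the 50-base stretches, 42.1% of Hspd1 and 22.8% of Hspe1 also occur in transcripts of other genes, chiefly Hspd1-ps3 and AC117239.2.

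KO library 2 and WT library 1 were both below the other 4 libraries for 8 of the 9 heat-inducible genes, all but Hspa4l, for 0 of the 7 ER-stress-inducible genes and for 7 of the 41 constitutive genes. Among all genes tested, 6.59% had this order, which was noticed in these same data. The constitutive genes with it were Hsp90ab1, Hspa8, Hspa9, Dnajc2, Dnajc21, Dnaja4 and Dnajb2. The order coincides with the absence of Y-linked reads, and the part of sex or of any other property of these libraries was not tested. In bulk RNA, fewer cells with a high level and less of the transcript per cell cannot be told apart.

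**Figure D2:**
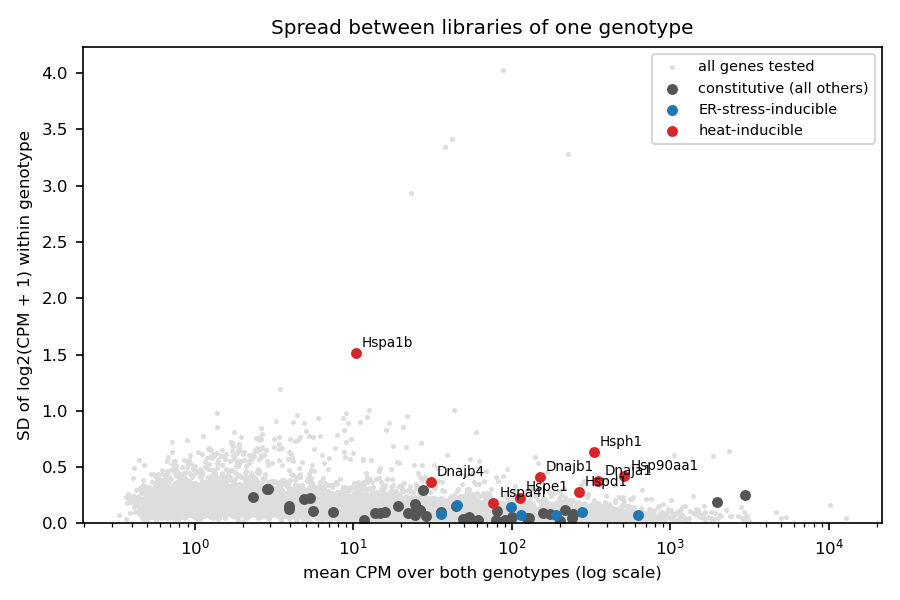
Within-genotype SD on the log2(CPM + 1) scale against the mean level in CPM (log axis) for the genes tested, with the chaperones coloured by class. The heat-inducible genes run from 0.18 for Hspa4l to 1.52 for Hspa1b, and 7 of the 9 are among the 10% of genes with the largest SD.

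The 4 libraries with Y-linked reads were not matched in them, since KO libraries 1 and 3 had more than WT libraries 2 and 3, so that genotype and Y-linked level cannot be told apart there. Both KO libraries (1 and 3) lay above both WT libraries (2 and 3) for 9 of the 9 heat-inducible genes, 1 of the 7 ER-stress-inducible genes and 7 of the 41 constitutive genes, beside 22.7% of all genes, which repeats the order already described. The ratio of KO to WT for the summed heat-inducible CPM was 1.47 in these libraries. Between the single libraries without Y-linked reads, KO library 2 was above WT library 1 for 8 of the 9 genes, all but Hspe1, beside 49.3% of all genes, with a ratio of 1.08 for the sum. Per gene, the ratio was 2.51 with and 2.18 without Y-linked reads for Hspa1b, 1.89 and 1.10 for Hsph1, 1.61 and 1.26 for Hspa4l, and 1.44 and 1.02 for Hsp90aa1. With the Y-linked level as a covariate the median log2 fold change of the 9 genes was 0.19, and that of Hspe1 was -0.02.

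Leaving out KO library 2 raised the number of chaperone genes called to 14, of which 11 were higher and 3 lower in KO and 7 were heat-inducible, beside 5.42% of all genes called (2.63% higher and 2.8% lower). Leaving out WT library 1 gave 0 called chaperone genes with edgeR and 6 at an unadjusted p under 0.05, beside 2.46% of all genes called. Leaving out both left 4, Hsph1, Hspa4l, Dnajb4 and Dnaja4, all higher in KO, beside 1.35% of all genes called and 0.768% called higher.

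**Figure D3:**
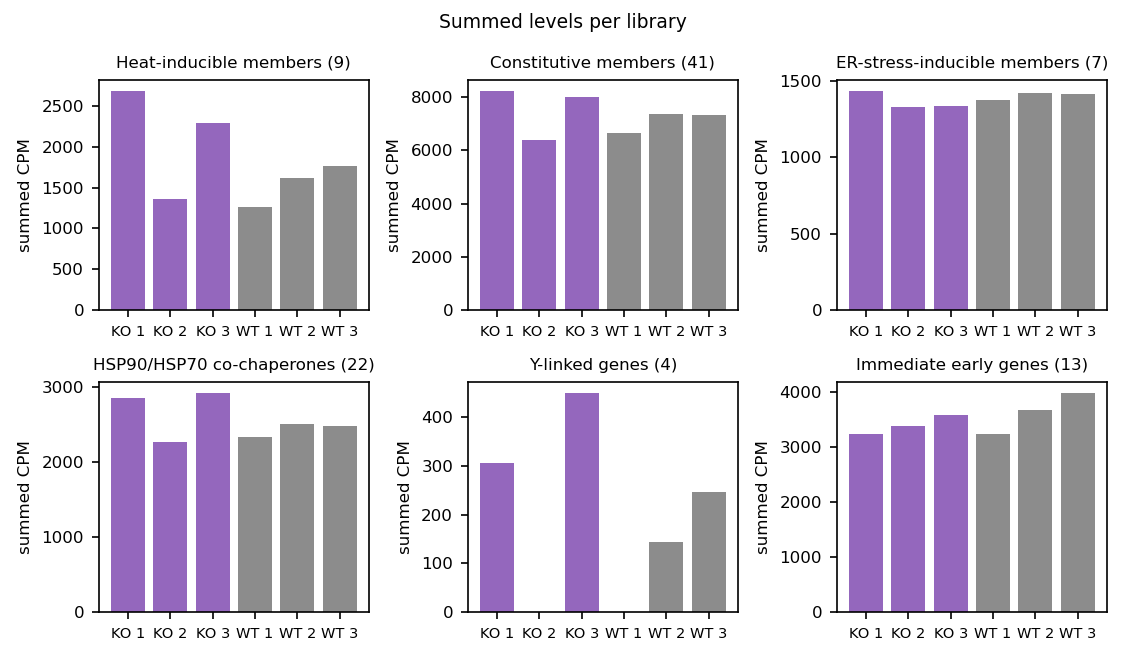
Summed CPM in each KO and WT library (1 bar a library) of the heat-inducible, constitutive and ER-stress-inducible chaperone genes, the co-chaperones, 4 Y-linked genes and 13 immediate early genes. The heat-inducible sum runs from 1362 to 2683 CPM in KO and from 1265 to 1769 CPM in WT libraries, while the ER-stress-inducible sum stays between 1329 and 1436 CPM, and the Y-linked bars of KO library 2 and WT library 1 are at 0.

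Summed over the class, heat-inducible transcripts made up 2683, 1362 and 2296 CPM in KO libraries, against 1265, 1615 and 1769 CPM in WT libraries. The mean was 2114 ± 679 CPM in KO and 1550 ± 258 CPM in WT cells (SD, n = 3 each), a ratio of 1.36, and the means differed by less than the SD of the KO libraries. KO library 2 lay between the WT libraries, and KO libraries 1 and 3 above them. The ER-stress-inducible sum was 1436, 1329 and 1336 CPM in KO libraries, against 1375, 1422 and 1415 CPM in WT libraries. The genotypes overlapped there, and the ratio was 0.973.

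Hsp90ab1 and Hspa8, the 2 most abundant chaperones per length, were among the 7 of 41 constitutive genes with this library order, and neither was called. Hsp90ab1, the constitutive HSP90, was the most abundant chaperone transcript per length at 3131 ± 593 TPM in KO and 2718 ± 285 TPM in WT cells (SD, n = 3 each), rank 24 among all genes. TPM here is CPM corrected for exon length. It had 3438, 2330 and 3553 CPM in KO libraries, against 2525, 2904 and 2854 CPM in WT libraries (log2 fold change 0.17, SE 0.14, adjusted p = 0.540, edgeR). KO library 2 was the lowest of the 6 and KO libraries 1 and 3 the highest. The adjusted p was 0.0204 without KO library 2, 0.813 without WT library 1 and 0.0815 without both (edgeR).

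Hspa8, the constitutive HSP70 of the cytosol, came next at 1416 ± 156 TPM in KO and 1334 ± 154 TPM in WT cells (SD, n = 3 each). It had 2322, 1666 and 2059 CPM in KO libraries, against 1749, 2063 and 2018 CPM in WT libraries, and the genotypes overlapped (log2 fold change 0.05, SE 0.11, adjusted p = 0.845, edgeR). Sequence shared with other transcripts, chiefly Gm15459, covered 39.4% of the 50-base stretches of Hspa8. Without Hsp90ab1 and Hspa8, the constitutive sum was 2478, 2395 and 2407 CPM in KO libraries, against 2399, 2423 and 2459 CPM in WT libraries, and the means were 2427 ± 45.1 CPM in KO and 2427 ± 30.3 CPM in WT cells (SD, n = 3 each).

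Hspa5, Hsp90aa1, Hspd1 and Hspe1 completed the 6 highest chaperones per length. Hspa5 had 433.1 ± 4.80 TPM in KO and 448.9 ± 35.8 TPM in WT cells, and Hsp90aa1 had 444.3 ± 131 TPM in KO and 328.5 ± 50.3 TPM in WT cells (SD, n = 3 each). In KO cells these 2 genes differed by less than the SD of Hsp90aa1. Hspd1 had 329.9 ± 59.5 TPM in KO and 265.5 ± 23.2 TPM in WT cells, and Hspe1 had 241.5 ± 42.0 TPM in KO and 212.9 ± 20.3 TPM in WT cells (SD, n = 3 each).

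Ratios of an inducible gene to its constitutive relative, on the TPM scale, showed how far the stress forms moved within a library. Hspa1b reached 0.0161, 0.00187 and 0.0134 of Hspa8 in KO libraries, against 0.000818, 0.00416 and 0.00855 in WT libraries. Hsph1 stood at 1.51, 0.623 and 1.59 times Hspa4 in KO libraries, against 0.585, 0.886 and 0.892 times in WT libraries. Hspa4l stood at 0.171, 0.146 and 0.196 of Hspa4 in KO libraries, against 0.119, 0.124 and 0.123 in WT libraries, and the genotypes did not overlap. Hsp90aa1 stood at 0.170, 0.120 and 0.132 of Hsp90ab1 in KO libraries, against 0.108, 0.122 and 0.132 in WT libraries. Dnaja1 stood at 0.901, 0.478 and 0.686 of Dnaja2 in KO libraries, against 0.412, 0.541 and 0.592 in WT libraries. Dnajb1 stood at 4.62, 2.41 and 4.56 times Dnajb6 in KO libraries, against 2.42, 3.07 and 4.02 times in WT libraries. The genotypes overlapped in each of these ratios but that of Hspa4l to Hspa4.

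Dnaja4, a cytosolic J-domain gene of the Dnaja1 family, had 36.4, 22.5 and 38.6 CPM in KO libraries, against 20.9, 24.1 and 22.7 CPM in WT libraries. KO libraries 1 and 3 stood well above the other 4. Dnaja4 was counted as constitutive here, and a RefSeq window of it held 2 matches of the 2-unit heat shock element. Its log2 fold change of 0.53 (SE 0.17) had an adjusted p of 0.106 with edgeR and 0.0121 with DESeq2, and with edgeR 0.00139 without KO library 2 and 0.306 without WT library 1. Exons of Wdr61 on the opposite strand cover 44.1% of its exon length, so the values of Dnaja4 are uncertain. Dnajc6 (auxilin), which uncoats clathrin vesicles, had 3.07, 3.46 and 3.27 CPM in KO libraries, against 4.33, 4.20 and 5.39 CPM in WT libraries. The genotypes did not overlap, and the log2 fold change was -0.51 (SE 0.17, adjusted p = 0.121, edgeR).

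Dnajc15, a J-domain protein of the mitochondrial inner membrane (chr14:77820681-77875125, minus strand, mm10), fell in KO cells. It had 24.9, 23.9 and 26.2 CPM in KO libraries, against 33.2, 30.5 and 32.6 CPM in WT libraries. All KO libraries lay below all WT libraries. The log2 fold change was -0.36 (SE 0.07, adjusted p = 0.0154, edgeR), and the call was lost without WT library 1 or WT library 3, with an adjusted p of up to 0.0705. Of the 10 mitochondrial chaperone genes it was the 1 called, beside 3.2% of all genes called lower. The median log2 fold change of the 10 was 0.00. Hspa9 (mortalin), the matrix HSP70, had 233.9, 195.3 and 220.3 CPM in KO libraries, against 204.5, 210.6 and 236.4 CPM in WT libraries, and the genotypes overlapped (adjusted p = 0.983, edgeR).

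**Figure D4:**
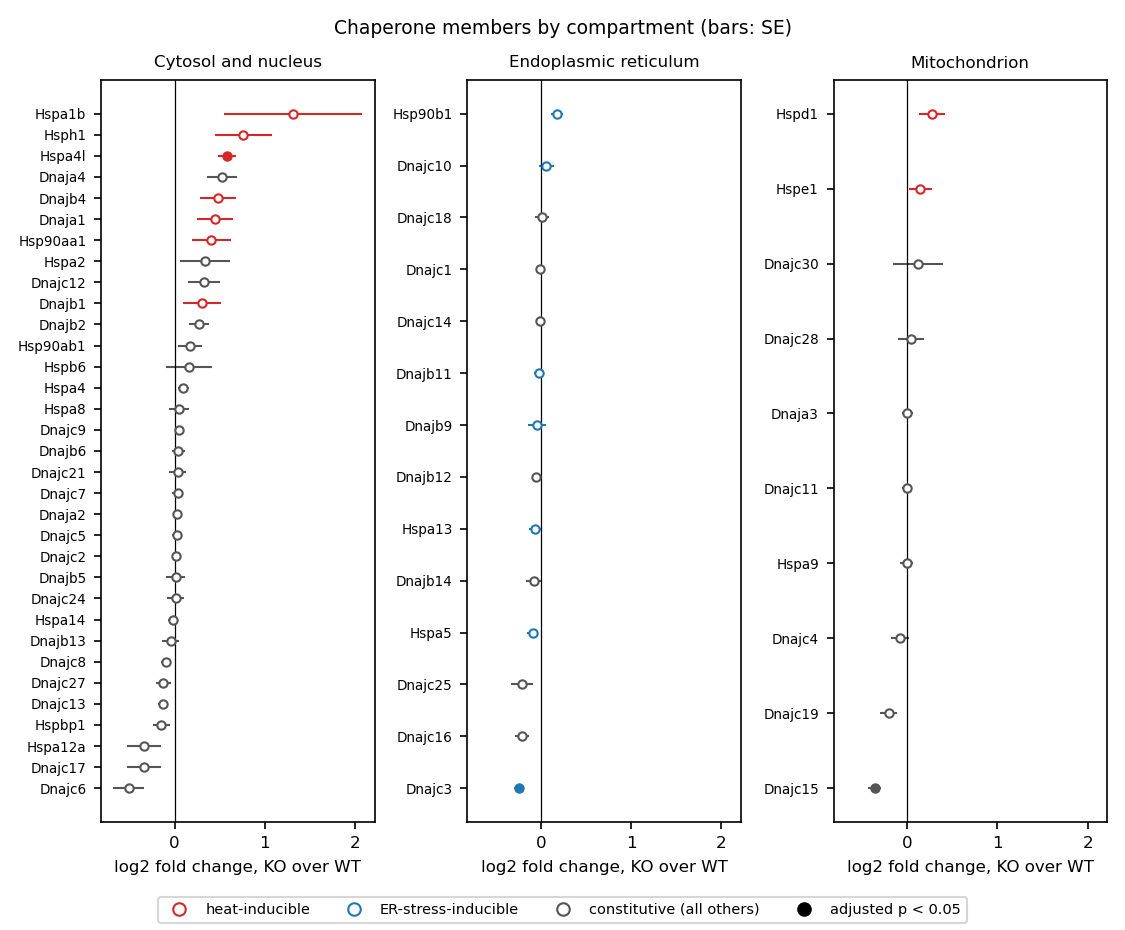
Log2 fold change (KO over WT) with its SE for 57 chaperone genes, arranged by compartment and coloured by class, filled where the adjusted p was under 0.05. The filled points are Hspa4l (0.58) in the cytosol and nucleus, Dnajc3 (-0.24) in the ER and Dnajc15 (-0.36) in mitochondria.

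In the ER, 3 of 14 genes had a positive and 11 a negative log2 fold change, with a median of -0.04. Of the 14, 1 was called, lower, beside 3.2% of all genes. That gene was Dnajc3 (chr14:118937976-118981697, plus strand, mm10), known as P58IPK, an inhibitor of the kinase PERK and a partner of the ER HSP70. It had 184.7, 175.7 and 161.6 CPM in KO libraries, against 202.8, 210.1 and 204.1 CPM in WT libraries. All KO libraries lay below all WT libraries. The log2 fold change was -0.24 (SE 0.06, adjusted p = 0.0306, edgeR), and the call was lost without KO library 3 or without any 1 WT library, with an adjusted p of up to 0.120.

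The ER HSP70 Hspa5 (BiP) had 645.6, 578.4 and 587.4 CPM in KO libraries, against 612.6, 659.3 and 658.1 CPM in WT libraries, with overlap (log2 fold change -0.09, SE 0.06, adjusted p = 0.423, edgeR). The ER HSP90 Hsp90b1 (GRP94) had 301.9, 266.5 and 318.2 CPM in KO libraries, against 264.9, 268.2 and 252.3 CPM in WT libraries. KO library 2 lay between the WT libraries. Its log2 fold change of 0.17 (SE 0.07) had an adjusted p of 0.167 with all libraries, 0.0329 without KO library 2, 0.337 without WT library 1 and 0.115 without both (edgeR). Both genes carry the ER stress response element, as does Dnajc3, and Dnajc3 and Hspa5 had negative fold changes while that of Hsp90b1 was positive.

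**Figure D5:**
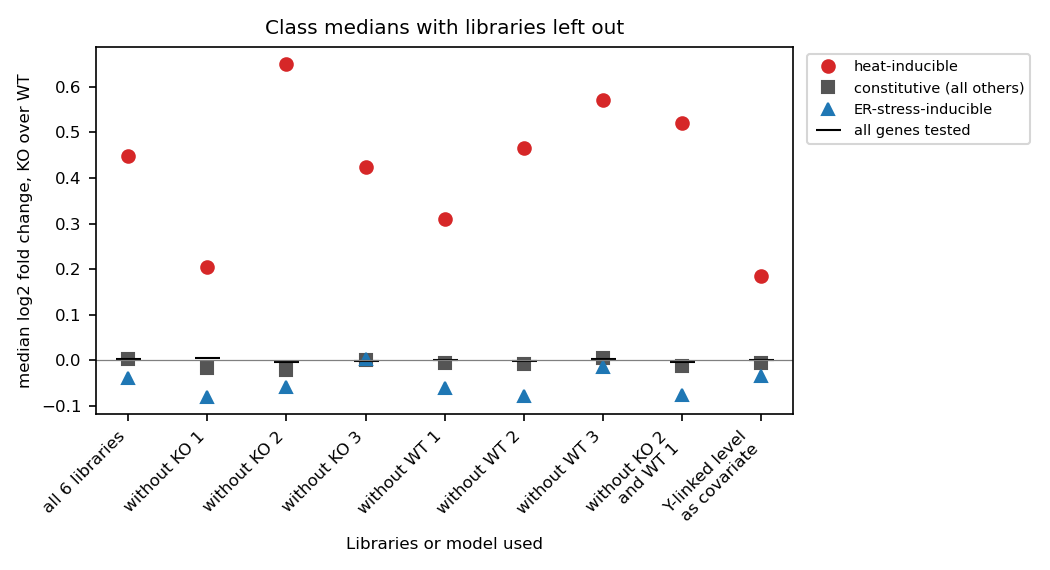
Median log2 fold change (KO over WT) of the chaperone classes and of all genes tested, with all 6 libraries, with libraries left out and with the Y-linked level as a covariate. The heat-inducible median runs from 0.19 with the Y-linked level as a covariate to 0.65 without KO library 2, and the constitutive and ER-stress-inducible medians stay near 0.

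The genes at the edge of the limit were low throughout. Just above it stood Hspb6, Hspa2 and Dnajc30 with means of 2.33, 2.86 and 2.90 CPM, and just below it Hspb1, Hspa1a and Hspg2 with 1.63, 1.36 and 0.49 CPM. Hspb1 (HSP25), a small heat shock protein, had 48, 28 and 51 reads in KO libraries, against 15, 26 and 33 reads in WT libraries. Hspg2 is the matrix proteoglycan perlecan, no chaperone, and shares only the prefix.

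Other genes of the protein-folding pathways were read in lists written with earlier results known. Of 22 HSP90 and HSP70 co-chaperones, 0 were called, with 4 at an unadjusted p under 0.05 and a median log2 fold change of 0.04, and DESeq2 called 1. KO library 2 and WT library 1 were both lowest for 9 of the 22 co-chaperones, beside 6.59% of all genes. Ahsa2, which stimulates HSP90, had 30.2, 19.7 and 36.3 CPM in KO libraries, against 19.8, 21.7 and 20.7 CPM in WT libraries (log2 fold change 0.48, SE 0.18, adjusted p = 0.166, edgeR). Without KO library 2, 7 of the 22 were called higher, beside 2.63% of all genes, and 0 without any other single library (edgeR). Leaving out both KO library 2 and WT library 1 gave 5 called higher, beside 0.768% of all genes. Without the low-count filter 6 of the 22 were called higher, beside 3.29% of 24676 genes and 750 of the 13602 that pass the filter.

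Of 14 subunits of the TRiC chaperonin and prefoldin, 0 were called by edgeR or DESeq2 and 0 had an unadjusted p under 0.05, with a median of 0.02. KO library 2 and WT library 1 were both lowest for 7 of these 14. Of 4 HSF factors and regulators tested, Hsbp1, which binds HSF1, was called lower, beside 3.2% of all genes (log2 fold change -0.19, SE 0.05, adjusted p = 0.0477, edgeR). Hsbp1 lost the call with any library left out. It was also not called by DESeq2 or limma-voom, or by edgeR with upper-quartile normalization or library size alone. Hsf1 itself had 57.0, 59.2 and 69.4 CPM in KO libraries, against 60.7, 60.4 and 58.7 CPM in WT libraries (adjusted p = 0.788, edgeR), and it was named after its values were seen.

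Of 20 ER folding and unfolded protein response genes, 1 was called, lower, beside 3.2% of all genes, and 8 had an unadjusted p under 0.05, beside 20.4% of all genes. This was Edem1, which takes misfolded glycoproteins to degradation, with 336.1, 297.3 and 338.5 CPM in KO libraries, against 374.2, 391.8 and 372.8 CPM in WT libraries (log2 fold change -0.23, SE 0.06, adjusted p = 0.0474, edgeR). The genotypes did not overlap, and the call was lost without KO library 1, KO library 2 or any WT library, and also with RLE or upper-quartile normalization or the 2 CPM filter. Of 12 mitochondrial partners and proteases, 0 were called by edgeR or DESeq2 and 1 had an unadjusted p under 0.05, with a median of -0.06.

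Immediate early genes, induced soon after cell stimulation or handling, were read as a further list. Their sum was 3227, 3374 and 3584 CPM in KO libraries, against 3236, 3666 and 3975 CPM in WT libraries. KO library 2 and WT library 1 were both lowest for 1 of the 12 tested, Jun, beside 6.59% of all genes. The part of handling in any result was not tested. Of the 12, 2 were called, both lower, beside 3.2% of all genes called lower. These were Egr1 (log2 fold change -0.38, adjusted p = 0.00504) and Ier2 (-0.31, adjusted p = 0.0112, edgeR).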

How the data were processed

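Raw read counts, whole numbers per gene and library, make up the deposited table, and the authors left them without normalization. Per the submitters' processing notes, HISAT2 2.1.0, fastp 0.23.2, mm10, DESeq2 1.34.0 and Picard were named, without roles (read counter, strand setting and annotation: not given in the sources used here).

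Genes were filtered with filterByExpr (minimum count 10, minimum total 15), normalized by TMM and tested by quasi-likelihood in edgeR (version 4.0.16 under R 4.3.3), with Benjamini-Hochberg adjustment over 13602 genes and a threshold of 0.05. Printed CPM are TMM-scaled, and the limit of 2 CPM used column totals. A count of 0 allows up to 3 reads, 0.133 to 0.165 CPM per library, for counting error only. TPM used exon lengths of GENCODE M21. Exact permutation of 3 against 3 libraries cannot go below p = 0.1.

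The members, classes, lists and tests were chosen with earlier results of these data known. Named genes are called members, a set of main chaperones, the 6 largest fold changes and levels, genes at the limit and the leading gene of each list. Others (Hsf1, the genes with the library order, Hspa4) were named after their values were seen. Alternatives were other normalizations, filters and tools (DESeq2 1.42.0, limma 3.58.1), libraries left out, a replicate block and a Y-linked covariate. Leaving out KO library 2 and WT library 1 together was added after seeing the data.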

Additional observations from a re-analysis of the deposited data

How the results depend on the processing

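Of all genes, 877 were called, against 1624 without a filter, 186 without KO library 2 and WT library 1, and 344 to 848 with 1 library left out. Chaperone genes called numbered 3, against 11 without a filter and 0 to 14 with 1 library left out. The constitutive median ranged from -0.0217 to 0.00539 with 1 library left out. On the narrow heat-inducible list, of which 4 genes met the limit, edgeR and DESeq2 called 0 (1 of its 6 genes had an unadjusted p under 0.05). The labels gave no pairing of the library numbers. Deviations from the genotype means correlated at -0.183, -0.0211 and 0.177 for numbers 1, 2 and 3, and at 0.272 for KO library 2 and WT library 1. With 3 libraries a genotype, these values cannot show whether the samples were paired. A replicate block called 738 genes and 3 chaperone genes, and ended the calls of Edem1 and Hsbp1. Some small log2 fold changes turned sign. With the Y-linked level as a covariate, Dnajc30 gave -0.00207, Hsp90ab1 -0.00845, Hspa1a -0.0475, Hspa8 -0.0551 and Hspe1 -0.0158. With libraries left out, Dnajc30 ranged from -0.123 to 0.397, Hspa8 from -0.0616 to 0.168 and Hspa9 from -0.0637 to 0.0604. Hspa9 gave 0.0068 by library size, 0.0109 by upper quartile, 0.00309 with the 2 CPM filter and 0.0182 without both KO library 2 and WT library 1. The cause was not tested. Depth limits Hspa1b, Hspa1a and Hspb1, with as few as 17, 2 and 15 reads in a library.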
